A study of Coturnix japonica with 4 samples.

Results

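The genes described here are 60 named regulators and machines of cell division: the proteins that license and copy DNA, the enzymes that supply nucleotides, the cyclins and cyclin-dependent kinases, the proteins of chromosome condensation, kinetochore, spindle and cytokinesis, and the cyclin-dependent kinase inhibitors. They were chosen by name, without a measured value in the rule, and looked up by symbol in the deposited expression table. Earlier results of these data were known when they were chosen. Of the 60, 59 were found among the 12383 genes used, and AURKB is not analysed here. All 59 reached a mean of at least 1 RPKM (reads per kilobase of transcript, adjusted to library size), so the floor used below for calling a gene measured removed no member.

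The samples were skin of Japanese quail (Coturnix japonica) embryos at embryonic day 7, cut from the black and from the yellow longitudinal stripes of untreated embryos. Each stripe gave 2 libraries, and each library pooled tissue of 4 embryos, per the labels. The labels do not give the strain or sex, or say whether both stripes came from the same embryos. The deposited table holds 1 RPKM value per stripe, so no SD, n or test of separate libraries can be given, and the depth behind the values is unknown.

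A vertebrate cell enters division when D-type cyclins with CDK4 or CDK6, and then E-type cyclins, relieve the retinoblastoma brake on E2F transcription factors, which turn on the genes of DNA replication. Genes of mitosis are mostly switched on later, toward the G2 phase, by MYB and FOXM1 complexes. In a mixed tissue their RNA therefore tends to be higher in cells in G2 and M, and that of replication genes in cells in late G1 and S. The split is not sharp: CCNA2, grouped below under mitosis, is a cyclin of S and G2. The share of cells in each phase was not measured here. In embryonic skin, dividing cells are found in the basal epidermis, in the dermis and among the migrating pigment cell precursors. In bulk skin, fewer dividing cells and less RNA per dividing cell cannot be told apart.

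The table names the 2 values E7B, for the black stripe, and E7Y, for the yellow stripe. Pigment genes ran against these names: of 8 melanocyte markers, 5 were past the authors' threshold of q under 0.05 in the authors' deposited table and all 5 were higher in the value named for the yellow stripe. TYR, which catalyses the first step of melanin synthesis, had 4.68 RPKM in E7B and 57.3 RPKM in E7Y. The values are therefore called E7B and E7Y throughout, and each direction below follows the column name only.

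Every gene grouped under mitosis had a higher value in E7B, most by under 1.2-fold and CENPA by 1.59-fold, with none past the authors' threshold. This grouping joins 4 groups by role and was made after their values had been seen. Genes of DNA replication and nucleotide supply lay on both sides, with 12 of 19 higher in E7B. Cyclins and kinases of G1 and S, grouped with the phosphatase CDC25A, also did, with 3 of 8 higher in E7B. Of the 59 members, 45 (76.3%) were higher in E7B and 14 in E7Y. Among the 10061 measured genes 49.7% were higher in E7B. The median log2 ratio of E7B over E7Y was 0.12 over the members, with quartiles of 0.03 and 0.18, and -0.00 over all measured genes, with quartiles of -0.08 and 0.08. None of the members was past the authors' threshold. In the authors' deposited table the q-value was 1 for each of the 59, where 0.331% of the 10569 genes tested had a q-value under 0.05. The unadjusted p-values of the members there ran from 0.0518 to 0.989, so 0 of 59 lay under 0.05, against 3.46% of the genes tested. The smallest ratio among all genes past the authors' threshold was 1.82-fold, and the largest ratio among the members was 1.59-fold.

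By size, 6 members (10.2%) were at least 1.2-fold higher in E7B, where 7.07% of measured genes were, and 0 were that much higher in E7Y, where 5.56% of measured genes were. The background share past 1.2-fold in E7B depended on the floor. With the floor raised to 5 RPKM, 5 of 58 members were past 1.2-fold in E7B, against 334 of all 8167 genes kept. In E7Y 0 members were, against 286 of these genes. The counts in E7B were 6 and 5 members at the 2 floors. CDKN1A, among the 6, falls under the limit with a pseudocount of 1 RPKM. These counts are too small for an excess over the background to be read from them. With the floor of 1 RPKM, 27 of 59 members (45.8%) were at least 1.1-fold higher in E7B, against 16.0% of measured genes. On the other side 3 of 59 were that much higher in E7Y, against 14.5%. At 1.5-fold there was 1 member higher in E7B, CENPA, against 1.78% of measured genes, and 0 higher in E7Y, against 1.08%. Most ratios of the members were thus small and of 1 sign. Summed over the 59 members, the RPKM came to 2388 in E7B and 2206 in E7Y, or 0.511% and 0.471% of the sum over all genes of the table.

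**Figure D1:**
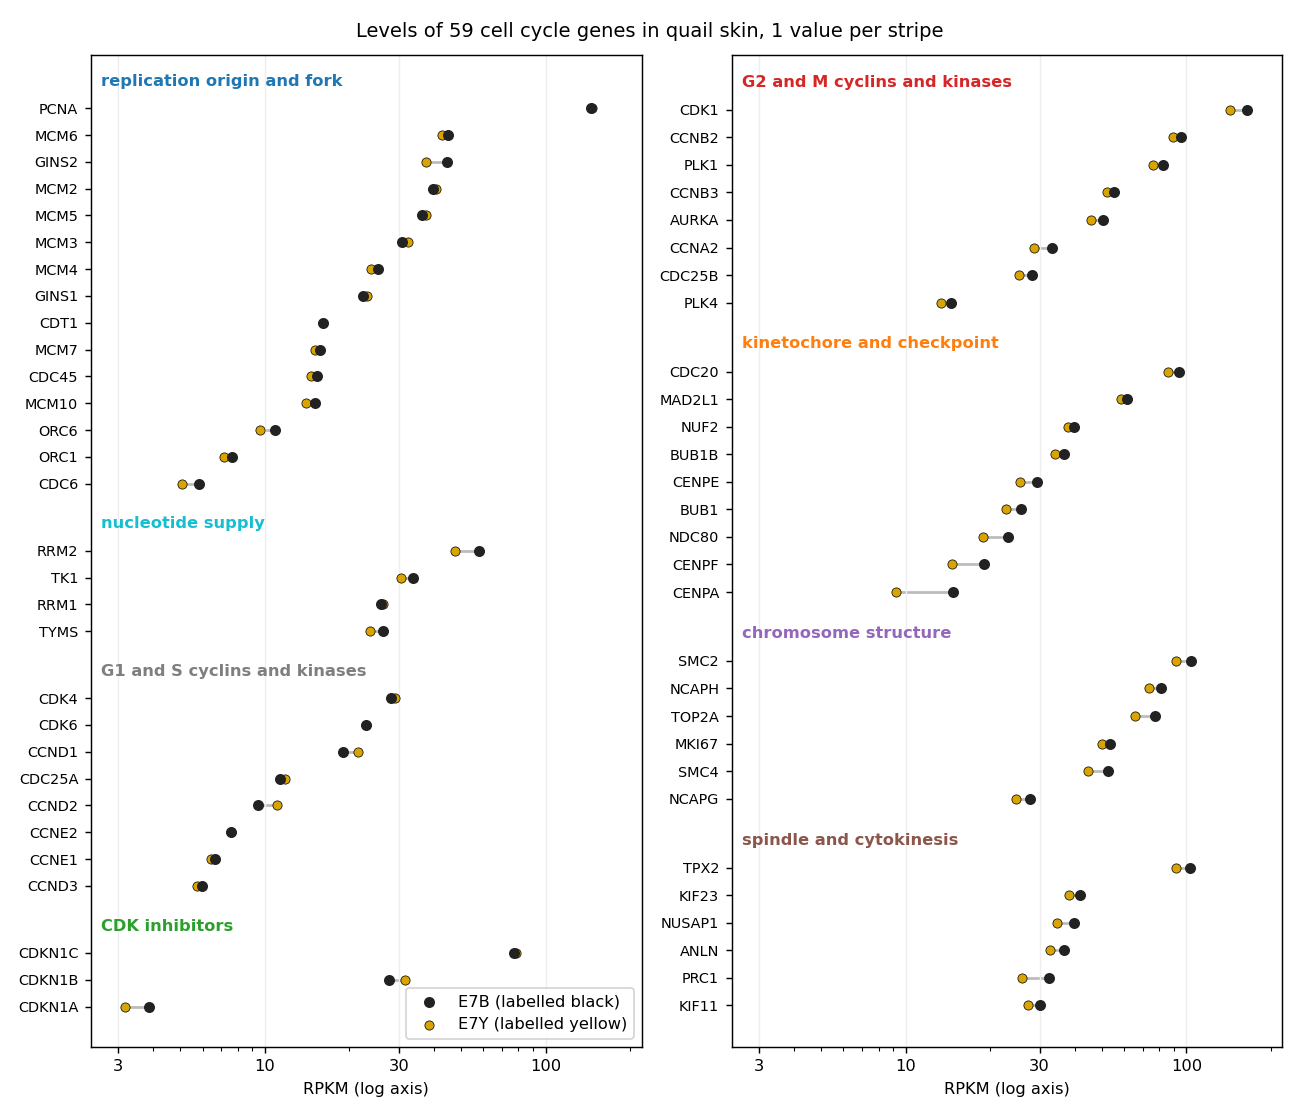
RPKM of the 59 members on a log axis, 1 black and 1 yellow point per gene for the deposited value of each stripe, in 8 groups by role and ordered by mean level within a group. In the right panel, which holds the 29 genes of mitosis, every black point lies to the right of its yellow point; in the left panel the points lie on both sides of each other or coincide.

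The members were well expressed. Their median level, as the mean of both values, was 29.2 RPKM, against 14.7 RPKM over all measured genes, and 47 of 59 lay above that. CDK1, the kinase that drives entry into mitosis, was the most abundant member with 164 RPKM in E7B and 143 RPKM in E7Y, and exceeded 96.7% of measured genes. PCNA, the sliding clamp of the replication fork, followed with 145 and 146 RPKM. The least abundant was CDKN1A, with 3.87 and 3.17 RPKM.

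Origin licensing begins with the origin recognition complex and its loading factors. ORC1, its largest subunit, had 7.61 RPKM in E7B and 7.17 RPKM in E7Y. ORC6, its smallest subunit, had 10.9 and 9.62 RPKM. CDC6, which joins the complex to load the helicase, had 5.83 and 5.07 RPKM, a 1.15-fold ratio with p = 0.504 in the authors' deposited table. These 3 were higher in E7B, but CDT1, the other loading factor, had 16.1 RPKM in both, a log2 ratio of -0.00.

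The replicative helicase showed no common direction. Of its subunits MCM2 to MCM7, 3 were higher in each value, and their summed level was 193 RPKM in both. MCM6 was the most abundant, with 45.0 RPKM in E7B and 42.9 RPKM in E7Y. MCM2 had 39.8 and 40.9 RPKM, and MCM5 had 36.2 and 37.6 RPKM. The largest difference in this hexamer was a log2 ratio of 0.08, for MCM4 (25.3 and 23.9 RPKM). MCM3 had 30.8 and 32.3 RPKM, and MCM7 had 15.7 and 15.0 RPKM. The subunits enter the ring in equal number, yet their RNA per length differed, with MCM6 2.87 times as abundant as MCM7 in E7B and 2.85 times in E7Y.

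Factors that turn the loaded helicase into a moving fork were also mixed. CDC45, a helicase cofactor, had 15.4 RPKM in E7B and 14.6 RPKM in E7Y. The helicase-associated GINS complex was represented by GINS1, with 22.4 and 23.1 RPKM, and GINS2, with 44.4 and 37.6 RPKM. GINS2 had the largest ratio of the 15 origin and fork genes, at 1.18-fold (p = 0.591 in the authors' deposited table), while GINS1 lay slightly on the other side. MCM10, which helps to activate the helicase, had 15.1 and 14.0 RPKM. Over the 15 genes, 9 were higher in E7B and 6 in E7Y, and the median log2 ratio was 0.07. None was 1.2-fold apart, where 7.07% of measured genes were that much higher in E7B and 5.56% in E7Y.

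Enzymes of nucleotide supply stood on 1 side except for 1 gene. RRM2, the regulatory subunit of ribonucleotide reductase whose level limits the enzyme in S phase, had 58.0 RPKM in E7B and 47.7 RPKM in E7Y. The ratio of 1.22-fold had p = 0.173 in the authors' deposited table. Its partner RRM1, the catalytic subunit, had 25.8 and 26.3 RPKM, so RRM2 exceeded RRM1 2.25 times in E7B and 1.82 times in E7Y. TYMS, which makes thymidylate, had 26.3 and 23.7 RPKM. TK1, the S-phase thymidine kinase, had 33.6 and 30.4 RPKM. RRM2, TYMS and TK1 thus had higher E7B values, and RRM1 did not.

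The cyclins and kinases of G1 and S had small ratios on both sides. CCND1, a D-type cyclin that couples growth signals to the cycle, had 18.9 RPKM in E7B and 21.5 RPKM in E7Y, an E7Y over E7B ratio of 1.14-fold with p = 0.365 in the authors' deposited table. CCND2, a second D-type cyclin, had 9.47 and 11.0 RPKM, 1.16-fold on the same side. Its p in the authors' deposited table was 0.416. CCND3, the third of the family, had 5.99 and 5.75 RPKM. The order CCND1, CCND2, CCND3 held in both values, with CCND1 2.00 and 1.95 times as abundant as CCND2. Without library values it cannot be said whether such steps exceed the spread.

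Their kinase partners were nearly level. CDK4 had 28.1 RPKM in E7B and 29.1 RPKM in E7Y, and CDK6 had 23.0 and 22.9 RPKM. The E-type cyclins, which activate CDK2 at the start of S phase, were low. CCNE1 had 6.64 and 6.42 RPKM and CCNE2 had 7.56 and 7.58 RPKM. CDC25A, the phosphatase that activates CDK2 with these cyclins, had 11.3 and 11.8 RPKM. Of these 8 genes 3 were higher in E7B and 5 in E7Y, with a median log2 ratio of -0.03. The sign for CDK6 turned when both columns were scaled to the same upper quartile.

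The 8 genes found of the G2 and M group, which are cyclins, kinases and the phosphatase CDC25B, all had a higher E7B value. Their median log2 ratio was 0.13. CDK1 had the values given above, a 1.15-fold ratio with p = 0.292 in the authors' deposited table. CCNA2, the A-type cyclin of S and G2, had 33.1 RPKM in E7B and 28.6 RPKM in E7Y. The B-type cyclins among the members, partners of CDK1 in mitosis, were more abundant. CCNB1, which is not a member, was not found by symbol. CCNB2 had 95.3 and 89.8 RPKM and CCNB3 had 55.3 and 52.1 RPKM. CCNB2 and CCNB3 each differed by 1.06-fold, less than CCNA2 at 1.16-fold.

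The other kinases of this group and the phosphatase of CDK1 showed the same side with narrow margins. PLK1, which promotes mitotic entry and spindle assembly, had 82.3 RPKM in E7B and 76.2 RPKM in E7Y. PLK4, the trigger of centriole duplication, had 14.5 and 13.4 RPKM. AURKA, a centrosome and spindle kinase, had 50.5 and 45.8 RPKM. These 3 kinases had log2 ratios from 0.11 to 0.14. CDC25B, the phosphatase that begins CDK1 activation, had 28.2 and 25.3 RPKM, whereas its G1 and S relative CDC25A lay on the other side.

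The kinetochore and spindle checkpoint genes held the largest and second largest ratios of the set, those of CENPA and CENPF. CENPA, the histone H3 variant that marks the centromere, had 14.8 RPKM in E7B and 9.26 RPKM in E7Y, a 1.59-fold ratio with p = 0.082 in the authors' deposited table. CENPF, a large kinetochore protein of G2 and M, had 19.0 and 14.6 RPKM, a 1.30-fold ratio. Its p of 0.0518 in the authors' deposited table was the lowest of all members. NDC80, the microtubule-binding subunit of the outer kinetochore, had 23.1 and 18.9 RPKM, 1.22-fold with p = 0.167 in the authors' deposited table. These 3 are among the 6 members past 1.2-fold, with RRM2, PRC1 and CDKN1A. The CENPA ratio exceeded that of 98.7% of measured genes and the CENPF ratio that of 95.8%.

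The other 6 genes of this group had smaller ratios of the same sign. NUF2, which pairs with NDC80 in 1 complex, had 39.8 RPKM in E7B and 37.8 RPKM in E7Y. CENPE, the kinetochore kinesin, had 29.5 and 25.6 RPKM. BUB1, a checkpoint kinase, had 25.7 and 22.8 RPKM. In these 3 the ratio ran from 1.05-fold for NUF2 to 1.15-fold for CENPE. BUB1B, another checkpoint protein, had 36.6 and 34.1 RPKM, and MAD2L1, the inhibitor that restrains the anaphase complex, had 61.4 and 58.5 RPKM. CDC20, the activator that MAD2L1 holds back, had 94.3 and 85.9 RPKM. All 9 were higher in E7B, with a median log2 ratio of 0.17.

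Chromosome structure genes had E7B values above the E7Y ones in 6 of 6. MKI67, a coat protein of mitotic chromosomes and the usual proliferation marker, had 53.6 RPKM in E7B and 50.1 RPKM in E7Y, the smallest ratio of the group at 1.07-fold. TOP2A, the topoisomerase that untangles sister chromatids, had 77.4 and 65.8 RPKM, 1.18-fold with p = 0.217 in the authors' deposited table. MKI67 thus had a smaller ratio than TOP2A, but without library values it cannot be said whether this step exceeds the spread. The condensin genes were SMC2 (104 and 92.1 RPKM), SMC4 (52.4 and 44.6 RPKM), NCAPG (27.8 and 24.7 RPKM) and NCAPH (81.4 and 73.9 RPKM). Their 4 log2 ratios lay between 0.14 and 0.23. SMC2 and SMC4 form a dimer, and SMC2 RNA per length was 1.99 times that of SMC4 in E7B and 2.07 times in E7Y.

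Spindle and cytokinesis genes were also 6 of 6 on that side, each past 1.1-fold. PRC1, which bundles microtubules of the central spindle, had 32.4 RPKM in E7B and 25.9 RPKM in E7Y, a 1.25-fold ratio with p = 0.206 in the authors' deposited table. KIF23, the kinesin of the cleavage furrow, had 41.9 and 38.1 RPKM, and ANLN, the furrow scaffold anillin, had 36.8 and 32.7 RPKM. PRC1 was the member of this group past 1.2-fold. TPX2, the spindle assembly factor that activates AURKA, was the most abundant with 103 and 92.0 RPKM. KIF11, the kinesin that separates spindle poles, had 30.2 and 27.2 RPKM, and NUSAP1, a spindle microtubule protein, had 39.9 and 34.5 RPKM.

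**Figure D2:**
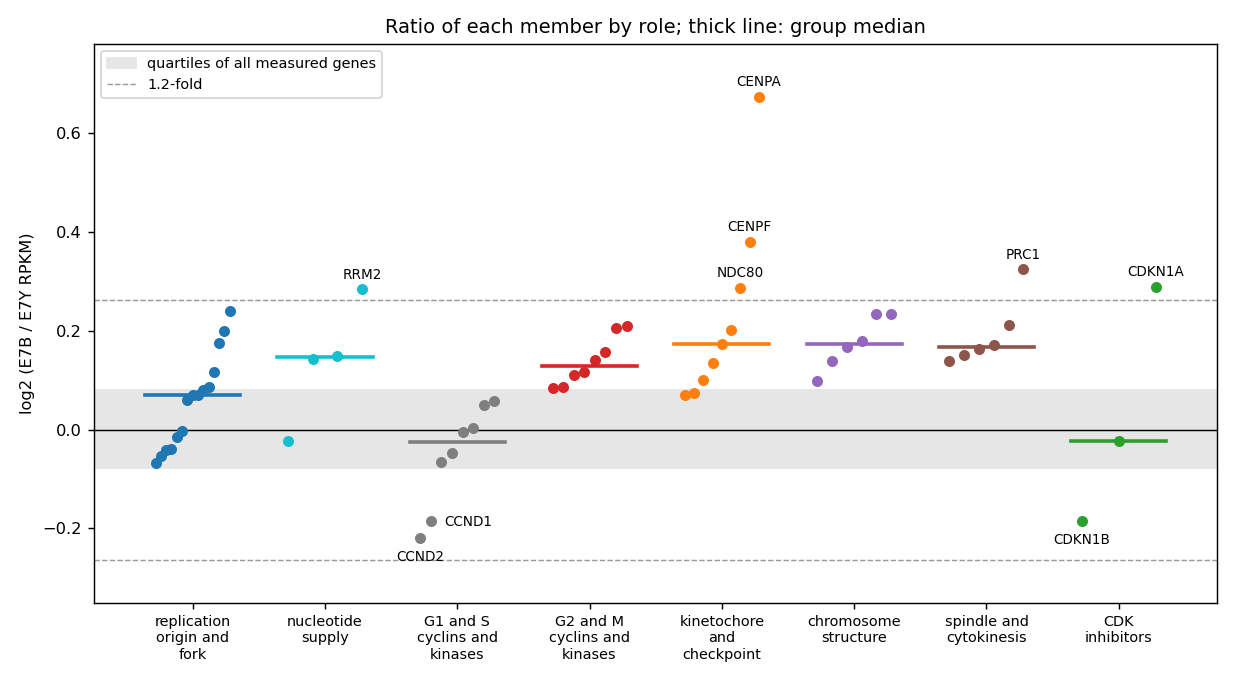
Log2 ratio of E7B over E7Y RPKM for each member (points) in 8 groups by role, with group medians as thick lines, 1.2-fold as dashed lines and the quartiles of all measured genes (-0.08 and 0.08) as a grey band. All points of the 4 groups of mitosis lie above 0, with CENPA highest at 0.67, and the G1 and S cyclins and kinases have a median of -0.03.

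Joined after their values had been seen, the 4 groups of mitosis hold 29 genes, all 29 with a higher E7B value, at a median log2 ratio of 0.16 and a range from 0.07 to 0.67. Their summed level was 1549 RPKM in E7B and 1383 RPKM in E7Y, a ratio of 1.12. Among the 29 are CCNA2, a cyclin of S and G2, and PLK4, the trigger of centriole duplication. The 30 members outside mitosis had 16 higher in E7B and 14 in E7Y, with sums of 839 and 824 RPKM. The 19 genes of replication and nucleotide supply among them had 12 higher in E7B, with a median log2 ratio of 0.07. All 14 members with a higher E7Y value were thus genes of replication, nucleotide supply, G1 or inhibition. At 1.1-fold, 20 of the 29 genes of mitosis were higher in E7B, where 16.0% of measured genes were, and 0 in E7Y, where 14.5% were. Of the 19 genes of replication and nucleotide supply, 6 (31.6%) were that much higher in E7B and 0 in E7Y.

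**Figure D3:**
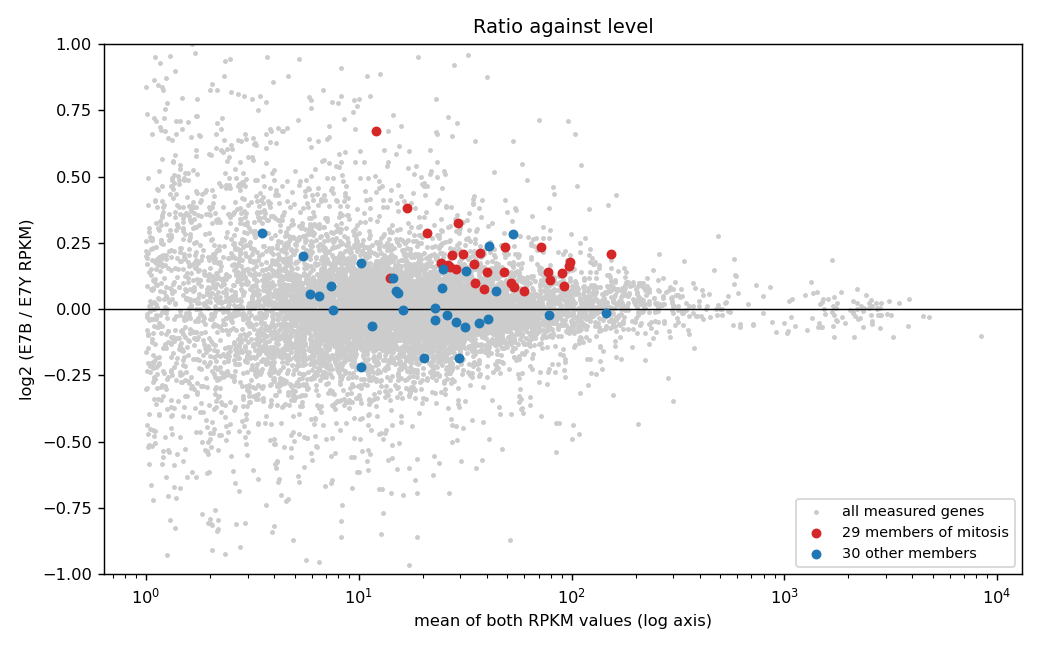
Log2 ratio against the mean of both RPKM values on a log axis for all measured genes (grey; 78 genes beyond a log2 ratio of 1 in either direction are not drawn), the 29 members of mitosis (red) and the 30 other members (blue). The red points lie above 0 along their whole range of levels, the blue points on both sides of 0, and both within the spread of the grey points.

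The inhibitors of cyclin-dependent kinases had no common side. CDKN1C, p57, which holds cells out of the cycle as they differentiate, was abundant and level at 77.5 RPKM in E7B and 78.7 RPKM in E7Y. CDKN1B, p27, had 27.8 and 31.5 RPKM, an E7Y over E7B ratio of 1.14-fold with p = 0.393 in the authors' deposited table. CDKN1A, p21, a target of p53, had 3.87 and 3.17 RPKM, 1.22-fold higher in E7B with p = 0.424 in the authors' deposited table. At this low level the ratio became 0.22 on the log2 scale with a pseudocount of 1 RPKM, from 0.29 without, which is under the 1.2-fold limit and leaves 5 members past it. CDKN1C RNA per length exceeded that of CDKN1B 2.79 times in E7B and 2.49 times in E7Y.

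Further genes of the cycle were taken from lists by name and are not among the members. These lists were also chosen with earlier results of these data known. They rest on the same 2 values as the members, and the lists were not tested against each other. Genes that are switched on together are not separate observations. The counts of genes on 1 side, here and among the members, are therefore not counts of independent results. Of 48 measured mitosis genes outside the set, 46 were higher in E7B, against 49.7% of all measured genes. Their median log2 ratio was 0.12, and 0 were past the authors' threshold, against 0.331% of the genes tested. At 1.1-fold 20 of the 48 (41.7%) were higher in E7B, against 16.0% of measured genes, and 0 in E7Y, against 14.5%. The largest ratios were those of KIF20B, a mitotic kinesin, with 4.37 RPKM in E7B and 3.32 RPKM in E7Y, and NCAPH2, a condensin II subunit, with 16.3 and 13.5 RPKM. The 2 on the other side were SKA1 (42.0 and 43.1 RPKM) and SKA2 (34.5 and 36.2 RPKM), both of a complex that couples kinetochores to microtubules. Of the 50 found in the table, CCNA1 and SGOL2 did not reach a mean of 1 RPKM.

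Of 37 further replication genes, 23 (62.2%) were higher in E7B, with a median log2 ratio of 0.04 and 0 at least 1.2-fold apart in either direction. Among measured genes 7.07% were that much higher in E7B and 5.56% in E7Y. LIG1, the ligase of the lagging strand, had 11.8 RPKM in E7B and 10.3 RPKM in E7Y, and CHAF1B, a chromatin assembly factor, had 6.15 and 5.36 RPKM. On the other side, ORC4 had 25.3 and 28.7 RPKM and GINS3 had 26.6 and 30.1 RPKM, so subunits of the same complexes as ORC1, ORC6 and GINS2 lay opposite to them. A list of 22 transcriptional regulators holds the E2F, RB and MYB families and also LIN genes, FOXM1, MYC and MYCN. Of these regulators, 14 (63.6%) were higher in E7B, with a median of 0.03. FOXM1, the activator of G2 and M genes, was among their 2 largest ratios with 27.6 and 25.0 RPKM (p = 0.479 in the authors' deposited table), beside E2F7, a repressor of E2F targets, with 4.64 and 4.19 RPKM. The lowest were LIN37, with 4.91 and 5.56 RPKM, and E2F5, with 10.5 and 11.4 RPKM.

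Checkpoint and brake genes had medians near 0. Of 15 DNA damage checkpoint genes 6 were higher in E7B, with a median log2 ratio of -0.01. They ranged from BARD1 at -0.07 and RAD17 at -0.04 to BRCA1 at 0.09 and BLM, a helicase of DNA repair, at 0.21. Of 11 measured brakes of the cycle outside the set 5 were higher in E7B, with a median of -0.02 that turned to 0.00 at floors of 0.1 and of 5 RPKM. BTG1, an antiproliferative protein, had 162 RPKM in E7B and 143 RPKM in E7Y, while GAS1, a growth arrest protein, had 53.8 and 63.5 RPKM. GADD45B (14.8 and 13.1 RPKM) and GADD45G (1.88 and 2.13 RPKM), a pair of stress-induced relatives, lay on opposite sides. No gene of these 5 further lists had p under 0.05 without adjustment in the authors' deposited table, against 3.46% of the genes tested.

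**Figure D4:**
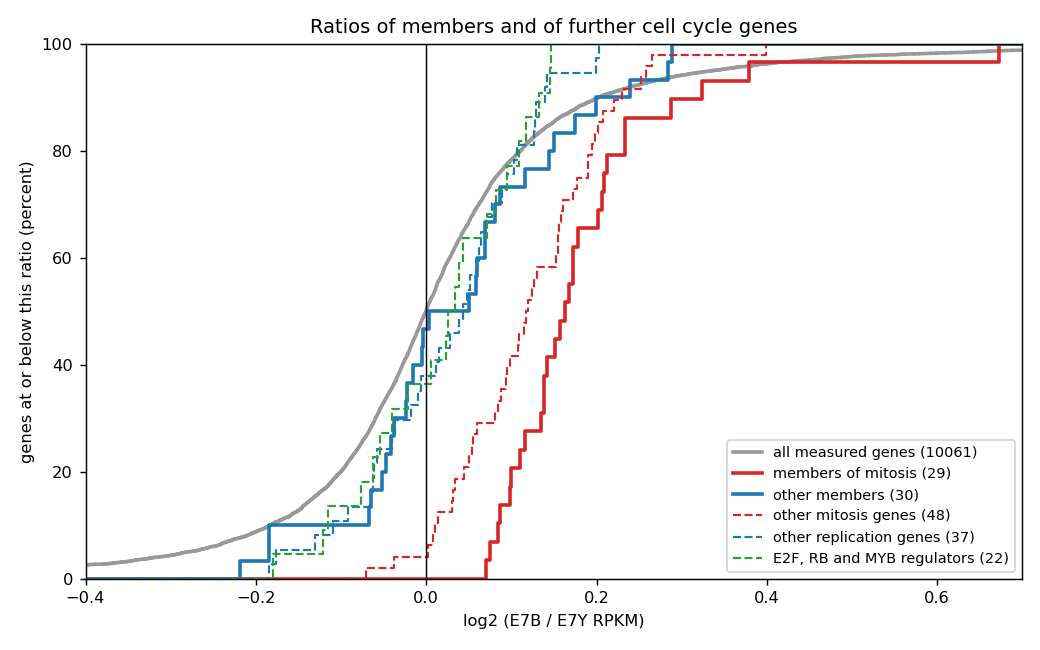
Cumulative percent of genes at or below each log2 ratio of E7B over E7Y RPKM, for all measured genes (grey), members (solid red and blue) and further genes of the cycle (dashed), with the number of genes in brackets. The curves of mitosis genes, members and further genes alike, start near or above 0 (-0.07 for the lowest further gene), and the curves of replication genes, of the other members and of E2F, RB and MYB regulators start between -0.22 and -0.18.

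Marker lists of skin and other cell types are given beside these ratios. Members past the authors' threshold of q under 0.05 were 5 of the melanocyte list, MYH11 of the smooth muscle list and PTPRZ1 of the Schwann cell list, all higher in E7Y, and the other 7 lists held 0. Of all genes tested 0.331% were past it. Of 8 epidermis markers found, 7 were higher in E7Y, with sums of 331 RPKM in E7B and 359 RPKM in E7Y. Of 10 dermal fibroblast markers 7 were higher in E7B, with sums of 2372 and 2286 RPKM, and 4 of 7 endothelium markers were, with sums of 96.6 and 95.7 RPKM. All 4 measured cartilage markers of 7 were higher in E7B, with sums over the list of 146 and 110 RPKM. Most of the sum came from COL2A1 (64.6 and 41.6 RPKM) and COL11A1 (70.3 and 59.2 RPKM). Under the floor lay ACAN (0.118 and 0.193 RPKM) and MATN3 (0.367 and 0.493 RPKM), higher in E7Y, and MATN1 (0.277 and 0.252 RPKM). Of 8 skeletal muscle markers 2 were measured, both higher in E7B, with list sums of 30.3 and 15.3 RPKM, where MYF6 was listed at 0 in both values and MYOD1 and MYOG lay under 0.14 RPKM. Smooth muscle (50.4 and 71.6 RPKM), Schwann cell (28.7 and 44.6 RPKM) and melanocyte lists (217 and 607 RPKM) had higher sums in E7Y, and neuron (25.3 and 23.3 RPKM) and blood cell lists (19.5 and 18.3 RPKM) in E7B. The sums cover members on both sides: GAP43 (2.79 and 4.99 RPKM) and ELAVL4 (4.07 and 6.41 RPKM) of the neuron list were higher in E7Y and TUBB3 (10.4 and 5.99 RPKM) in E7B. DES (2.94 and 1.36 RPKM) of the smooth muscle list and KIT (30.8 and 23.6 RPKM) of the melanocyte list were higher in E7B. The part of these cell types in the ratios of the mitosis genes was not tested.

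Some members share their place in the genome with another gene. In the RefSeq annotation of Coturnix japonica 2.1, used for names and neighbours only, 12 members overlap another gene, and MCM7 has no chromosome there. For 6 of them the other gene has a value in the table: GINS1 with NINL, GINS2 with GSE1, CCND3 with TAF8, CCNE2 with INTS8, SMC4 with IFT80 and TPX2 with BCL2L1. The other 6 are RRM2, CCND1, CDK6, CDK1, CDC25B and PRC1, of which RRM2 and PRC1 are past 1.2-fold. No label says whether reads were counted by strand. The partners had log2 ratios from -0.17 for NINL to 0.15 for GSE1, with 24.0 and 22.0 RPKM for IFT80 and 45.5 and 50.4 RPKM for BCL2L1 in E7B and E7Y. TPX2 and BCL2L1 thus had ratios of opposite sign, and GINS2, the largest ratio of the fork genes, shared the sign of GSE1.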

How the data were processed

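RNA of 4 libraries was extracted with Trizol and made into Illumina TruSeq libraries, per the labels. TopHat2 2.1.1 and Cufflinks 2.2 are named in the submitters' processing notes; build, annotation, strand setting and how libraries were combined: not given in the sources used here. All deposited RPKM values were computed by the authors, 1 per stripe, per the file headers. The authors' p-values, q-values and log2 ratios stand in a second deposited sheet, a QIAGEN export per the file headers, and the test behind them is not stated.

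Of 12419 rows, 11 whose ID had become a date number and 25 with 4 repeated IDs were left out. Log2 ratios of E7B over E7Y, taken without a pseudocount, lay within 0.01 of the authors' log2 ratio in 10503 of 10503 genes with 0.5 RPKM or more in each column. Measured means a mean of at least 1 RPKM. Genes with p under 1 count as tested. No test was run, since there is 1 value per stripe; calls use the authors' q-value under 0.05. All members in the table were named; of each further list, the 2 largest ratios in each direction. Members and lists were chosen with earlier results of these data known. Promoter and protein sequences were not analysed here. Counting code was tested on simulated data. Alternatives covered floors, pseudocounts, fold limits, thresholds and scaling. Python 3.11.15, pandas 2.3.3 and matplotlib 3.10.9 were used.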

Additional observations from a re-analysis of the deposited data

How the results depend on the processing

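No paired analysis was possible because the table holds 1 value per stripe; for the same reason no library could be left out. The count of 6 members at least 1.2-fold higher in E7B became 27 at a limit of 1.1-fold and 1 at 1.5-fold, and the count of 0 in E7Y became 3 at 1.1-fold, by the construction of the limits. It was 5 with a pseudocount of 1 RPKM, which takes CDKN1A under the limit, and 5 at a floor of 5 RPKM, which leaves CDKN1A out. The median log2 ratio of the members and the percent higher in E7B held under 3 other floors, 2 pseudocounts and 3 scalings, which shifted all ratios by -0.01 to 0.00; these say little about stability, since every member lies above 3 RPKM and no library values were had. The floors left every member in except CDKN1A at 5 RPKM. The count past the authors' threshold, by the authors' q-value, was 0 under q of 0.05 and of 0.2, and 0 had an unadjusted p under 0.05. Of 13 list medians, that of the cell cycle brakes, -0.02, turned to 0.00 (0.000305) at floors of 0.1 and of 5 RPKM; these floors held 12 and 10 of its genes in place of 11. The median of the CDK inhibitors went from -0.02 to -0.10 at 5 RPKM, over 2 genes. With a pseudocount of 1 RPKM 9 of 59 member ratios moved by 0.01 or more on the log2 scale, toward 0. The unknown depth limits every small ratio given here.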
